A study of Mus musculus with 14 samples.

Results

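The regions described here are sites where Sin3B had a peak in both growing and differentiated C2C12 cells and where neither Sin3A list had one. They were chosen by merging all overlapping peaks of the 4 deposited lists (shared length of at least 1 bp) and keeping each merged region that held a Sin3B peak of myoblasts and a Sin3B peak of myotubes but no Sin3A peak. This rule found 1000 of the 5137 merged regions, or 19.5% (95% exact Clopper-Pearson interval 18.4 to 20.6%, here and below). They made up 71.2% (68.7 to 73.5%) of the 1405 regions with Sin3B at both stages, the other 405 of which also held a Sin3A peak. A further 1953 regions had Sin3B in myotubes alone and 880 in myoblasts alone, with no Sin3A. The overlaps chose the members, so these counts are a description and carry no test.

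Peaks came from chromatin immunoprecipitation of Sin3A or Sin3B followed by sequencing, done in C2C12, an established mouse skeletal muscle line of C3H background whose myoblasts fuse into myotubes once serum is lowered. Myoblasts grew in 10% fetal bovine serum. Myotubes were made from confluent cells in 2% horse serum and were detached with dilute trypsin, away from cells that had not fused. No genotype or drug distinguished the groups, and all cells came from the one line. There were 2 samples each of Sin3A in myoblasts, Sin3A in myotubes and Sin3B in myoblasts, 5 of Sin3B in myotubes, and 3 input samples that were not analysed here. The files of a group were identical, so n is 1 list per group, no spread between cultures could be measured, and every p below takes regions or peaks as units and compares lists, not cultures. The lists held 691 and 759 Sin3A peaks in myoblasts and myotubes and 2387 and 3769 Sin3B peaks, as bare intervals without heights, so read depth is unknown and a missing peak does not show a missing protein. Per the labels, the Sin3A and the Sin3B antibody carry the same catalogue number, and all Sin3B samples used a single antibody lot. The lists hold no expression values, so the stages could not be checked against muscle marker genes.

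Sin3A and Sin3B are large scaffold proteins without DNA-binding activity of their own. Each holds class I histone deacetylases together with other subunits, and sequence-specific factors bring the assembly to promoters, where removal of acetyl groups from histones is generally linked to lower transcription. Sin3B is known for its part in silencing cell cycle genes as cells leave the cycle, a step that myoblasts take before they fuse.

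No source used here gives the genome build of the lists. It differed from the gene tables at hand (RefSeq, GRCm38.p6) over most of the genome, where only 1.38% of 4914 regions held a gene start of the table. On 3 stretches the coordinates fitted the table without any shift: chromosome 16 from 3908545 to 91647429, chromosome 19 from 3282521 to 6335337 and chromosome 8 from 3467135 to 13785999. There 52.5% of 223 regions held a gene start. The table does not hold a start for every gene: of 848 coding genes that RefSeq places on the stretches, 697 (82.2%) had one, so a start below means one of this table. Gene names are given only on these stretches, which hold 47 of the 1000 members (4.70%). The stretches were delimited by where regions met gene starts, so the shares below are tied to that choice, and small differences between the builds inside them were not tested for.

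The promoters of 6 genes whose starts lay in members are shown first, because they show the motifs described below: the ETS core in 5 of them, the cyclic AMP response element (CRE), NRF1 and YY1. Each run holds the 250 bases before the gene start, read 5′ to 3′ along the gene's own strand, from RefSeq (GRCm38.p6). Capitals mark ETS (CCGGAAG), short CRE site (TGACGT), NRF1 (GCATGCGC) and YY1 (AAGATGGCG) matches on either strand.
Gabpa (chr16:84834874-84835123, plus strand): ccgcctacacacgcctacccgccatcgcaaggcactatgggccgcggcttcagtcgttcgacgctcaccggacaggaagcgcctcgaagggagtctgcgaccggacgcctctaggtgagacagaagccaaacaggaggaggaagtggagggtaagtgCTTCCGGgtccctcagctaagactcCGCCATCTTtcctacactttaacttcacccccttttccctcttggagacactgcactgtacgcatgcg
Lsg1 (chr16:30587590-30587839, minus strand): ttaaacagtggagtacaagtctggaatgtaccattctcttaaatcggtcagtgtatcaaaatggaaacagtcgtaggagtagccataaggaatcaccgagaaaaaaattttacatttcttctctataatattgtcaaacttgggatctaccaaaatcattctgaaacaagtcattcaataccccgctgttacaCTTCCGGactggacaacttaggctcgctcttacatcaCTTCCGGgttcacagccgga
Rfc4 (chr16:23127731-23127980, minus strand): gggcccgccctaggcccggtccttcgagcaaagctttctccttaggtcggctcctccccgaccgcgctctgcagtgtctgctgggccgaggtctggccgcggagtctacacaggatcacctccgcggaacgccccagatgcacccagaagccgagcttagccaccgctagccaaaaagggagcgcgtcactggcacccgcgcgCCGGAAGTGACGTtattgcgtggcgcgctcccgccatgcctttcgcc
Trmt10c (chr16:56037787-56038036, minus strand): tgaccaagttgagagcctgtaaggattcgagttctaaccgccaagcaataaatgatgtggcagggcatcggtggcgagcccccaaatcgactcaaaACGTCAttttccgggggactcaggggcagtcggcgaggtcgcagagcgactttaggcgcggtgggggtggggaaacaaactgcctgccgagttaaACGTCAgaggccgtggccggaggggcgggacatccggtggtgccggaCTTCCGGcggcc
Zbtb11 (chr16:55973554-55973803, plus strand): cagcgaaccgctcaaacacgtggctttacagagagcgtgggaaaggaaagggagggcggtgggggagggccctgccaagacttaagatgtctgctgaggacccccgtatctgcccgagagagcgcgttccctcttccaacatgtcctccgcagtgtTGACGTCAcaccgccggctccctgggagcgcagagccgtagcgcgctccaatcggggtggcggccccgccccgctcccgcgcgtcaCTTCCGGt
Mis18a (chr16:90727372-90727621, minus strand): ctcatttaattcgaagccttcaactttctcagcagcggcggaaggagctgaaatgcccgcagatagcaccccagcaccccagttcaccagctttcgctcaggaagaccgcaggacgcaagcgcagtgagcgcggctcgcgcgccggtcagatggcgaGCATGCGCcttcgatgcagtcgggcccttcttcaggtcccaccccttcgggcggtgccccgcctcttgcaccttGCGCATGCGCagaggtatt
Gabpa encodes the ETS-family DNA-binding subunit of a factor that drives many nuclear genes for mitochondrial proteins, and its promoter is shared with Atp5j, which runs the other way. Lsg1, a GTPase of large ribosomal subunit maturation, had 2 ETS cores, and Rfc4, a subunit of the clamp loader of DNA replication, had an ETS core joined to a short CRE site. Trmt10c, a subunit of mitochondrial ribonuclease P, had 1 ETS core with 2 separate short CRE sites. Zbtb11, a zinc finger protein, had 1 ETS core and the full CRE TGACGTCA, which holds the short site on both strands. Mis18a, needed to load the centromeric histone variant, had 3 NRF1 matches, 2 of which overlap on opposite strands, and no ETS core. A match is a string of letters in this window and was not tested for binding.

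Most members on the stretches lay on the start of a gene. A gene start fell inside 37 of the 47 members (78.7%, 64.3 to 89.3%), against 37 of 89 regions with Sin3B in myotubes alone (41.6%, 31.2 to 52.5%) and 13 of 35 with Sin3B in myoblasts alone (37.1%, 21.5 to 55.1%). The difference was 37.2 percentage points from the former (Fisher's exact test, two-sided, p = 5.35e-05, adjusted over 3 comparisons 1.61e-04) and 41.6 points from the latter (p = 2.10e-04, adjusted p = 3.15e-04). Regions with Sin3B at both stages and also Sin3A stood at 15 of 20 (interval 50.9 to 91.3%), 3.72 points below the members (Fisher's exact test, adjusted p = 0.756), an interval too wide to show that they are alike. Of these 3 comparisons, 66.7% passed. On chromosome 16 the members held a start in 24 of 30 cases, on chromosome 19 in 11 of 14 and on chromosome 8 in 2 of 3. The same counts were 24 of 55, 9 of 22 and 4 of 12 for myotube-alone regions, 7 of 20, 1 of 8 and 5 of 7 for myoblast-alone regions, and 9 of 10, 5 of 8 and 1 of 2 for regions with Sin3A, so members were not the highest on chromosome 8 or on chromosome 16.

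A member joins at least 2 peaks and is wider than a region of 1 peak, which bears on these shares. With single peaks in place of merged regions, a choice made after the data were seen, the myoblast peak of a member held a gene start in 37 of 47 cases (78.7%) against 37.1% of peaks found in myoblasts alone (41.6 points higher, Fisher's exact test, adjusted over 8 tests p = 9.23e-04). The myotube peak held one in 29 of 47 (61.7%, 46.4 to 75.5%) against 41.6% of peaks found in myotubes alone, a difference of 20.1 points that did not pass the adjustment (Fisher's exact test, p = 0.0309, adjusted p = 0.0825). In regions that also held Sin3A, 55.0% of myoblast and 65.0% of myotube peaks held a start. Neither difference from the members passed (Fisher's exact tests, adjusted p = 0.149 for the myoblast peaks). Counting starts up to 1 kb from a region also brought the classes together: 85.1% of members, 84.3% of regions with Sin3B in myotubes alone and 68.6% of those in myoblasts alone then qualified, and neither difference passed Fisher's exact test (adjusted p = 1.00 and 0.317). Single peaks still differed in width. The median was 592 bp for the members' myoblast peaks against 474 bp for myoblast-alone peaks. For myotube peaks it was 616 bp in members against 495 bp in myotube-alone regions. With only the wider peaks of each list kept, the excess was 9.66 points over myotube-alone and 5.77 points over myoblast-alone regions. Neither of these passed Fisher's exact test after adjustment. The part of region width in either excess was not tested apart from these comparisons.

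**Figure D1:**
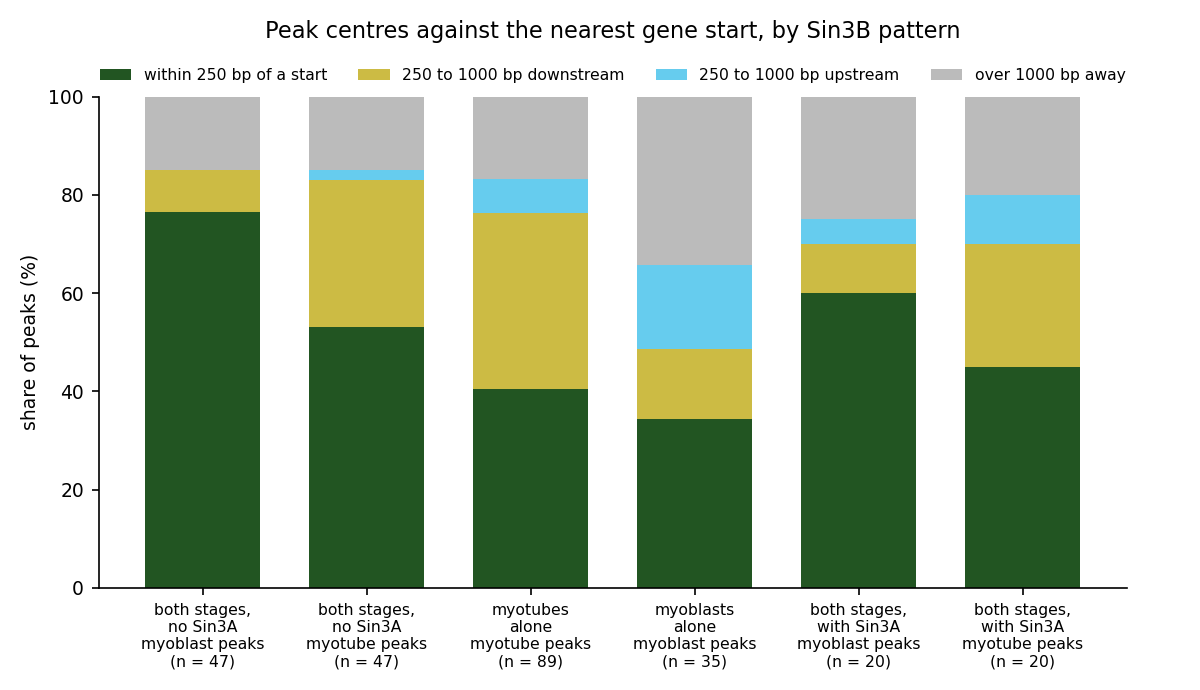
Share of single Sin3B peaks (vertical axis, percent) on the 3 stretches by the place of the peak centre against the nearest gene start, one bar per Sin3B pattern and stage with n peaks each. Centres within 250 bp of a start make up 76.6% of the members' myoblast peaks, 53.2% of their myotube peaks, 40.4% of myotube-alone peaks and 34.3% of myoblast-alone peaks. In regions that also held Sin3A, 12 of 20 myoblast and 9 of 20 myotube centres lay this close to a start.

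The plot of peak centres shows both stages of the same regions side by side. Of the members' myoblast peaks, 36 of 47 (76.6%) were centred within 250 bp of a start, 4 lay 250 to 1000 bp downstream in the direction of transcription and 0 upstream. Of their myotube peaks, 25 of 47 (53.2%) were centred within 250 bp, 14 (29.8%) lay downstream and 1 upstream. Peaks found in myotubes alone were centred downstream in 32 of 89 cases (36.0%), and peaks found in myoblasts alone in 5 of 35 (14.3%). Centres farther than 1000 bp from any start of the table were 7 of 47 (14.9%) for members at either stage and 12 of 35 (34.3%) for the myoblast-alone peaks, a count that includes peaks near genes without a start in the table, such as Hes1. With either end of such genes added to the starts, 44 of 47 members (93.6%) and 28 of 35 myoblast-alone regions (80.0%) lay within 1 kb of one. So did 82 of 89 myotube-alone regions (92.1%) and 18 of 20 regions with Sin3A (90.0%). Closeness to a start at this distance is thus not particular to the members. For centres within 250 bp, members exceeded the myoblast-alone peaks by 42.3 points (adjusted p = 9.23e-04) and the myotube-alone peaks by 12.7 points (adjusted p = 0.315, Fisher's exact tests). In regions that also held Sin3A, 12 of 20 myoblast and 9 of 20 myotube centres lay within 250 bp. Neither difference from the members passed (16.6 and 8.19 points, Fisher's exact tests, adjusted p = 0.315 and 0.686). Downstream centres in these regions numbered 2 of 20 in myoblasts and 5 of 20 in myotubes. More downstream centres in myotubes are thus not shown to be particular to the members.

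The 37 members held the starts of 42 protein-coding genes, which is 6.01% of the 699 coding genes with a start of the table on the stretches. All 42 starts lay under the myoblast peak. The peaks of both stages covered 33 of them, the myoblast peak alone covered 9, and the myotube peak alone covered 0. The 9 were Dnaja3, Lsg1, Tmem39a, Atp5j, Gabpa, Ndufv1, Sf3b2, Znrd2 and Tubgcp3, named here after their values were seen. In the 32 members with coding starts on a single strand, the myoblast centre lay a median of 22.8 bp and the myotube centre a median of 109.5 bp downstream of the start. At Cct8 and Mis18a a noncoding gene also started on the other strand, and the direction is that of the coding gene. Going from myoblasts to myotubes the centre lay farther downstream in 23 of these and farther upstream in 9, with a median shift of 70.0 bp (range -211.0 to 526.5 bp). The myotube peak lay wholly downstream of the start in 6 of the 32 and wholly upstream in 1, while no myoblast peak cleared the start. In the 12 comparable regions that also held Sin3A, the median shift was 113.0 bp, with 7 downstream and 5 upstream. Their median centre, however, lay 57.8 bp downstream of the start in myoblasts and 33.8 bp in myotubes, the reverse of the members' order. The shifts of the 2 patterns were not tested against each other, so the shift is not shown to be particular to the members. Antibody lot was the same for both Sin3B stages, but depth and peak calling per stage are unknown, and their part in the shift was not tested.

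**Figure D2:**
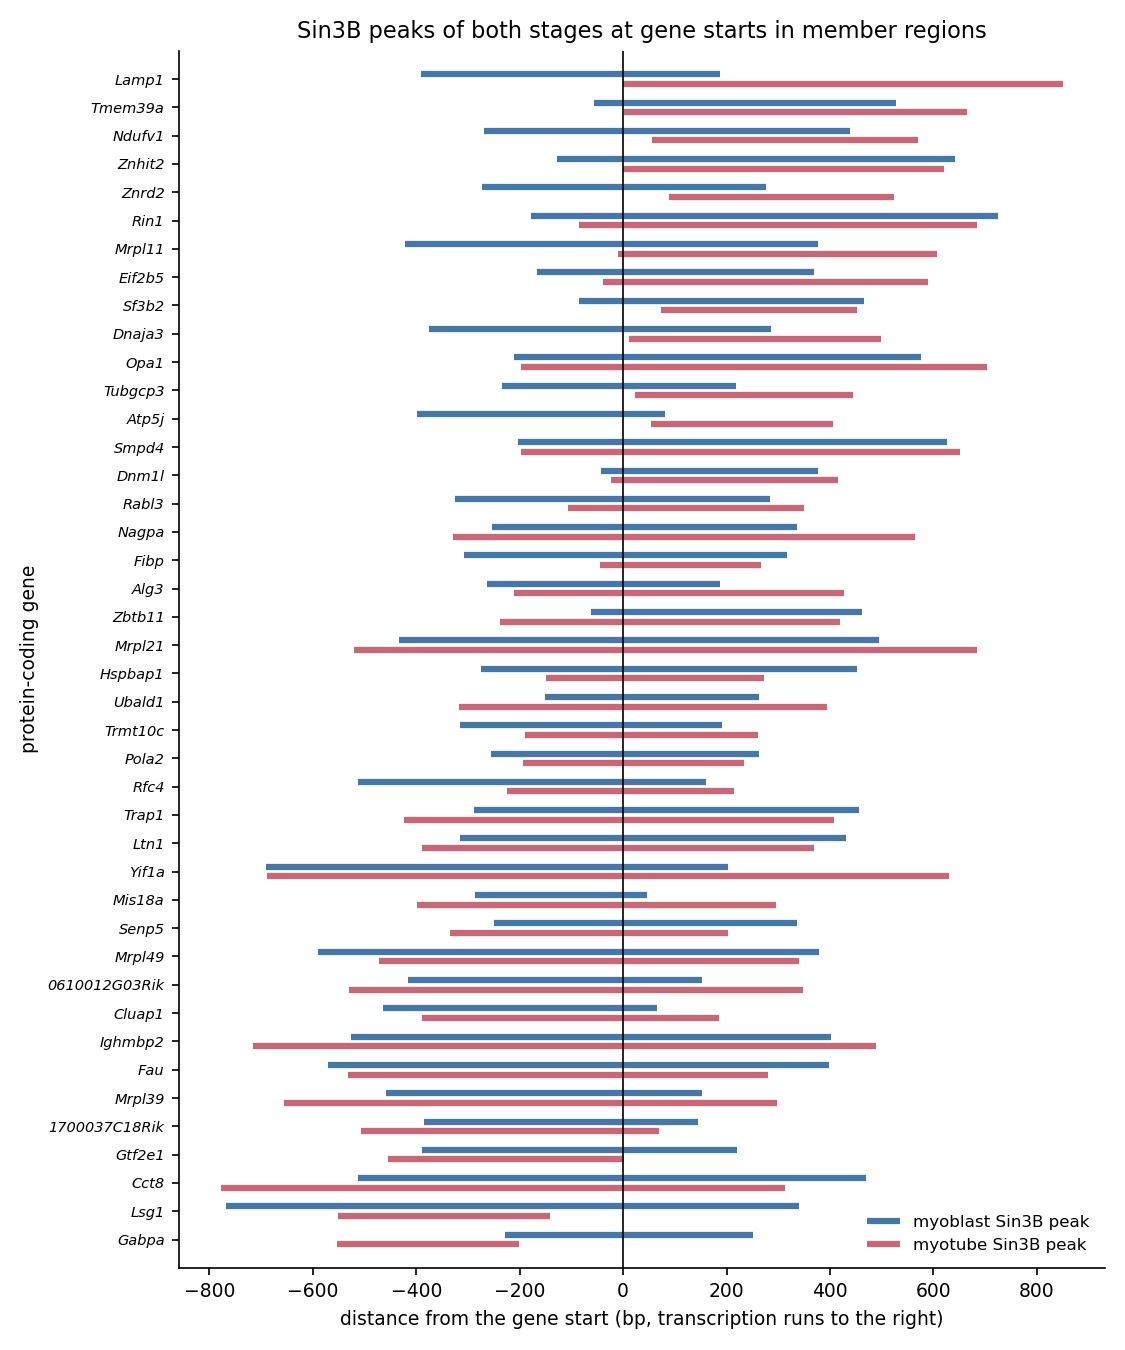
Extent of the myoblast (blue) and myotube (red) Sin3B peak in bp from the start of each of the 42 coding genes in members, with transcription running to the right and genes ordered by the myotube peak's centre. Every blue line crosses the start at 0, and 9 red lines do not, among them those of Gabpa, Lsg1, Ndufv1 and Dnaja3.

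From the mitochondrial ribosome list, 5 genes had a start on the stretches and 4 of these starts lay in members, namely Mrpl11, Mrpl21, Mrpl39 and Mrpl49, all proteins of the large subunit of the mitochondrial ribosome, while that of Mrpl40 did not. A myotube-alone peak was centred 207.0 bp downstream of the Mrpl40 start and did not hold it. At Mrpl21 the myoblast peak was 929 bp and the myotube peak 1206 bp wide, in a region on chromosome 19 at 3282521 to 3283726. At Mrpl39 (chromosome 16, 84734947 to 84735899) the widths were 612 and 953 bp. Mrpl11 (chromosome 19, 4961885 to 4962912) had peaks of 799 and 616 bp. The wider peak was thus the myotube one at Mrpl21 and Mrpl39 and the myoblast one at Mrpl11.

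From the respiratory chain and ATP synthase list, 2 of 4 starts lay in members. Ndufv1, a flavin-binding subunit of complex I, had a myoblast peak of 710 bp from 270 bp upstream to 439 bp downstream of its start, and a myotube peak of 517 bp that began 55 bp downstream (chromosome 19, 4012184 to 4013025). Atp5j, a coupling factor of ATP synthase, shared its member with Gabpa (chromosome 16, 84834570 to 84835375). The myoblast peak of 480 bp covered both starts and the stretch between them. The myotube peak of 354 bp in this member lay on the Atp5j side, from 53 to 406 bp downstream of its start, and so wholly upstream of Gabpa. A wider myotube peak of 891 bp stood on the Gabpa side at 84835484 to 84836374, outside the member and without overlap, in a myotube-alone region that covers another annotated start of Atp5j. In myotubes Sin3B peaks thus flanked the Gabpa start on both sides. Ndufb4 and Ndufs8 had starts on the stretches but not in a member. A myoblast-alone peak was centred 428.0 bp upstream of the Ndufs8 start and did not hold it.

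Other mitochondrial genes were outside the lists. By roles assigned after the names were known, which left 8 of the 42 genes without a role, 11 encoded mitochondrial proteins, and the share of such genes on the stretches was not counted. Opa1, the GTPase of inner membrane fusion, had peaks of 789 and 901 bp that began 212 and 197 bp upstream of its start (chromosome 16, 29579122 to 29580037). Dnm1l, the GTPase of mitochondrial fission, had peaks of 420 and 439 bp (chromosome 16, 16358616 to 16359073). The 2 stages thus gave nearly the same intervals at both genes of mitochondrial shape. Trap1, a mitochondrial chaperone, had peaks of 746 and 831 bp. At Dnaja3, a mitochondrial co-chaperone, the myoblast peak spanned the start by 376 bp upstream and 286 bp downstream, and the myotube peak began 11 bp downstream. Trmt10c had peaks of 509 and 451 bp around its start.

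Among genes of protein synthesis, 4 had a start in a member. Fau, which encodes a small-subunit ribosomal protein fused to a ubiquitin-like domain, and Mrpl49 start on opposite strands within the same region (chromosome 19, 6057377 to 6058345), under a myoblast peak of 969 bp and a myotube peak of 815 bp. Of the 3 cytoplasmic ribosomal protein genes with a start on the stretches, Fau alone lay in a member, Rpl35a lay in a myotube-alone region and Rpl24 in neither. Eif2b5, the catalytic subunit of the exchange factor for initiation factor 2, had peaks of 536 and 630 bp, while Eif4a2 and Eif4g1 were not in members. A myotube-alone peak was centred 756.5 bp downstream of the Eif4g1 start and did not hold it. Ltn1, the ubiquitin ligase of stalled ribosomes, had peaks of 748 and 760 bp. The widest myoblast peak at any of the 42 starts was that of Lsg1, 1110 bp, against a myotube peak of 410 bp that stayed between 551 and 142 bp upstream.

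For DNA replication, 2 of 3 list genes with a start on the stretches lay in members. Rfc4 had a myoblast peak of 673 bp and a myotube peak of 440 bp (chromosome 16, 23127516 to 23128242), and Pola2, a subunit of the polymerase alpha and primase complex, had peaks of 519 and 428 bp (chromosome 19, 5963943 to 5964461). Both covered the start at both stages. The third, Cdc45 of the replicative helicase, lay in a region with Sin3B in myotubes alone. Mis18a had peaks of 333 and 695 bp, and Tubgcp3 of the gamma-tubulin complex had peaks of 455 and 424 bp, the myotube one starting 22 bp into the gene.

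Genes of transcription and RNA numbered 5. Besides Gabpa and Zbtb11, they were Gtf2e1, a subunit of general factor TFIIE, Sf3b2 of the splicing factor complex that binds the branch point, and Ighmbp2, a helicase. Sf3b2 had a myoblast peak of 553 bp over its start and a myotube peak of 381 bp beginning 73 bp downstream. Gtf2e1 shared a member with Rabl3, and Ighmbp2 shared one with Mrpl21, in each case with starts on opposite strands. In all, 7 of the 37 members (18.9%) held starts on both strands, 5 of them with coding genes on both, against 2 of 37 (5.41%) myotube-alone regions, 3 of 13 myoblast-alone regions and 4 of 15 regions with Sin3A. These counts were not tested.

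Genes of the secretory pathway, lipids and lysosome also numbered 5. Lamp1, a major lysosomal membrane protein, was the only one of 5 autophagy and lysosome list genes in a member, with a myoblast peak of 579 bp and a myotube peak of 852 bp that began 1 bp before the start and ran 850 bp into the gene (chromosome 8, 13158770 to 13160011). Alg3, a mannosyltransferase, had peaks of 452 and 640 bp, Nagpa, which uncovers the lysosomal targeting signal, 592 and 895 bp, and Smpd4, a sphingomyelinase, 830 and 851 bp. At these 4 genes the myotube peak was the wider. Cct8, a chaperonin subunit, had wide peaks of 983 bp in myoblasts and 1091 bp in myotubes, and Senp5, a SUMO protease, had 587 and 539 bp.

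Several gene groups had few or no starts on the stretches, which limits what can be said of them. No sarcomere, calcium handling or ribosome biogenesis gene of the lists had a start there. The single cell cycle regulator (Tfdp1) and the single myogenic regulator (Mrtfb) did not lie in a member, and Ing1 of the Sin3 complex lay in a myotube-alone region. Of 3 proteasome and ubiquitin, 2 histone modifier and 2 DNA repair genes, 0 had a start in a member. Over all 16 lists, 12 of 35 genes (34.3%) had their start in a member, against 30 of 664 coding genes in no list (4.52%), beside 6.01% of all coding genes of the stretches. List genes also started in myotube-alone regions, namely Ing1, Cdc45, Rpl35a, Ube2l3, Mcoln1 and, by another start, Atp5j. Lig4 started in a myoblast-alone region. No list gene started in a region with Sin3B at both stages and Sin3A, a pattern that held 18 coding starts. The share of list genes was not tested between the patterns, so this excess is not shown to be particular to the members. These lists were written with earlier results of these data known, and single lists of 1 to 5 genes show no difference between groups.

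Of the 10 members of the stretches without a start of the table, 9 overlapped a gene and 2 of these held an end of one. Whether that end is the gene's start was not determined. Hes1, a repressor downstream of Notch, had peaks of 392 and 394 bp within the gene (chromosome 16, 30067168 to 30067599). Others lay in Alg1, Ufd1, Nepro and Pcid2, over an end of Vps51, and over the neighbouring ends of B4gat1 and Brms1, with member widths from 502 to 1072 bp, apart from a 13 bp region in Tiam1. One member, on chromosome 16 at 17921945 to 17922597, overlapped no gene of the table.

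The promoters of the 42 starts were rich in CpG. Over 300 bases (250 before to 50 after the start) their median GC content was 58.2%, against 56.3% for all 21263 coding promoters of the table (a gene can have several). The median ratio of observed to expected CpG was 0.872 against 0.567, and 36 of 42 (85.7%) were above 0.6 against 47.6% of all. That share was 43.3% among the 675 coding promoters of the stretches outside any region, 87.2% and 80.0% at starts in myotube-alone and myoblast-alone regions, and all 18 starts in Sin3A-holding regions were above 0.6. A high CpG ratio was thus common to starts in all the Sin3B patterns.

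The ETS core CCGGAAG was in 17 of the 42 promoters (40.5%, 25.6 to 56.7%). It was in 11.1% of the 675 promoters outside regions, in 18.5% (14.2 to 23.4%) of the 292 of these with a CpG ratio above 0.6, and in 11.6% of all coding promoters. The share was 17.9% (7.54 to 33.5%) at starts in myotube-alone regions, 40.0% (16.3 to 67.7%) at 15 starts in myoblast-alone regions and 61.1% (35.7 to 82.7%) at 18 starts in regions that also held Sin3A, so the members' share was close to or below those of the latter patterns. Genes that start on opposite strands of a region can share a site, as Gabpa and Atp5j do, so the 42 promoters are not independent and the intervals are too narrow. Counted once per region, ETS was in 15 of 37 members (40.5%, 24.8 to 57.9%), 7 of 35 myotube-alone regions, 5 of 12 myoblast-alone regions and 9 of 15 regions with Sin3A. Per promoter, the full cyclic AMP response element TGACGTCA was in 5 member promoters (11.9%) against 2.05% of the CpG-rich promoters outside regions, YY1 (AAGATGGCG) in 4 (9.52%) against 2.40%, and the E2F-type site TTGGCGC in 6 (14.3%) against 4.79%. The other E2F-type site, GCGGGAA, was in 3 (7.14%) against 8.90%, and NRF1 (GCATGCGC) in 3 (7.14%) against 4.79%. At starts in myotube-alone, myoblast-alone and Sin3A-holding regions, CRE was in 7.69, 13.3 and 11.1%. There YY1 was in 10.3, 0 and 5.56%, TTGGCGC in 5.13, 0 and 11.1%, and GCGGGAA in 12.8, 0 and 22.2%. NRF1 was above the members' share in each of these patterns, with 10.3% at myotube-alone and 16.7% at Sin3A-holding starts. These differences were not tested, so none of these motifs is shown to be particular to the members. Per member region, CRE was in 4 of 37, YY1 in 2 and TTGGCGC in 4. With 42 promoters the intervals are wide. Per promoter, those of the member and CpG-rich shares overlap for CRE (3.98 to 25.6% and 0.758 to 4.42%), YY1, NRF1 and both E2F types, and do not for ETS. The CpG-rich set was counted per promoter only, so the shares per region have no like value beside them. Motifs were searched on both strands, and TGACGTCA contains the short CRE site TGACGT marked in the sequences above.

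The following motifs were at a similar or lower share in members than in promoters outside regions. The GC box GGGCGG was in 40.5% (25.6 to 56.7%) of member promoters against 75.7% (70.3 to 80.5%) of the CpG-rich promoters outside regions and 64.1% at myotube-alone starts. CCAAT was in 35.7% against 37.0% and, at myotube-alone starts, 61.5%. The muscle E-box CAGCTG, the site type of the MyoD family, was in 2 of 42 (4.76%) against 11.0% and, at myotube-alone starts, 23.1%. The MEF2 string TATTTATAG and the TATA string TATAAA were in 0 of 42 (interval 0 to 8.41%), against 0 and 5.14% of the CpG-rich promoters outside regions. The cell cycle homology region string TTTGAA was in 1 of 42 (2.38%) against 11.3%. None of these differences was tested, and a missing string says nothing of the factor.

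**Figure D3:**
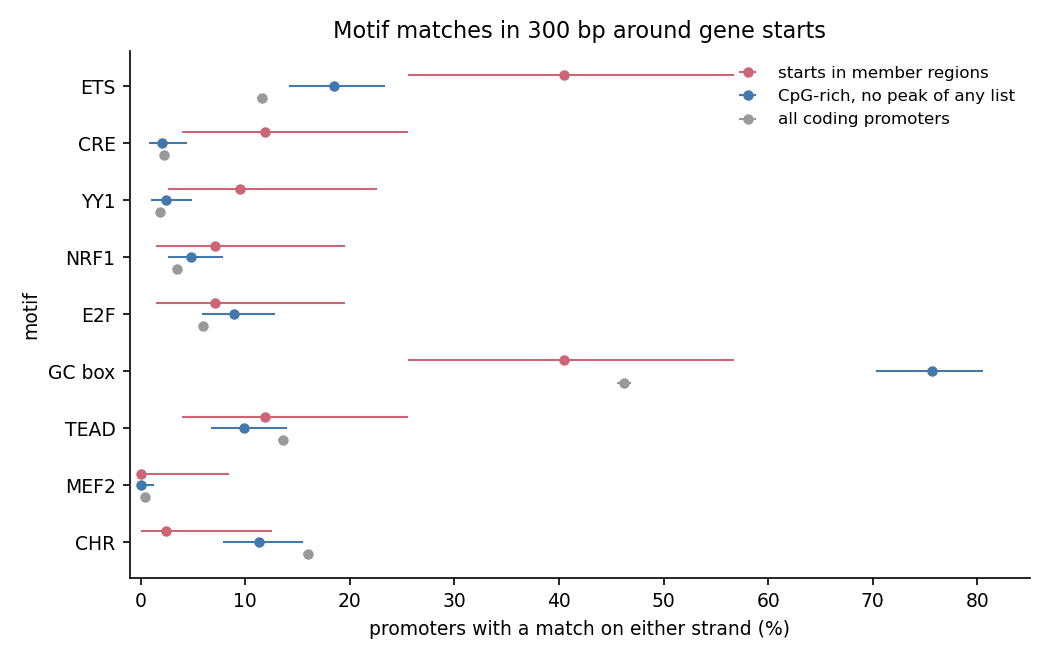
Share of promoters (horizontal axis, percent) with at least one match to each motif in 300 bp around the gene start, with 95% exact intervals, for 42 starts in members, 292 CpG-rich promoters of the stretches outside all lists and 21263 coding promoters. The ETS point of the members (40.5%) lies above both others, and their GC box point (40.5%) lies below that of the CpG-rich set (75.7%).

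Over the whole genome the width of members ran from 13 to 2399 bp with a median of 746 bp, and together they covered 791.0 kb. The myoblast peak had a median width of 546 bp (13 to 1745 bp) and the myotube peak 583 bp (11 to 1951 bp). The median was 442.5 bp for myoblast-alone regions and 494 bp for myotube-alone regions, and regions with Sin3B at both stages and Sin3A had Sin3B peaks of 550 bp in myoblasts and 729 bp in myotubes. In 965 members each stage had 1 peak, in 34 there were 3 peaks and in 1 there were 4. The peaks of the 2 stages shared a median of 409 bp (10 to 1169 bp), or 96.0% of the shorter peak, and their centres lay a median of 110.2 bp apart. In 224 members the myoblast peak lay inside the myotube peak and in 191 the reverse. Since overlap and wide peaks helped to make a region a member, these values are a description.

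The myotube peak was the wider in 555 members, the myoblast peak in 444, and both were equal in 1. The ratio of myotube to myoblast width had a median of 1.06 with quartiles of 0.796 and 1.41. It exceeded 2 in 91 members, and the myoblast peak was more than 2 times as wide in 48. Across the 1000 members the 2 widths had a Pearson r of 0.319 and a Spearman rho of 0.287, given as a description since all regions come from the same 2 Sin3B lists.

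**Figure D4:**
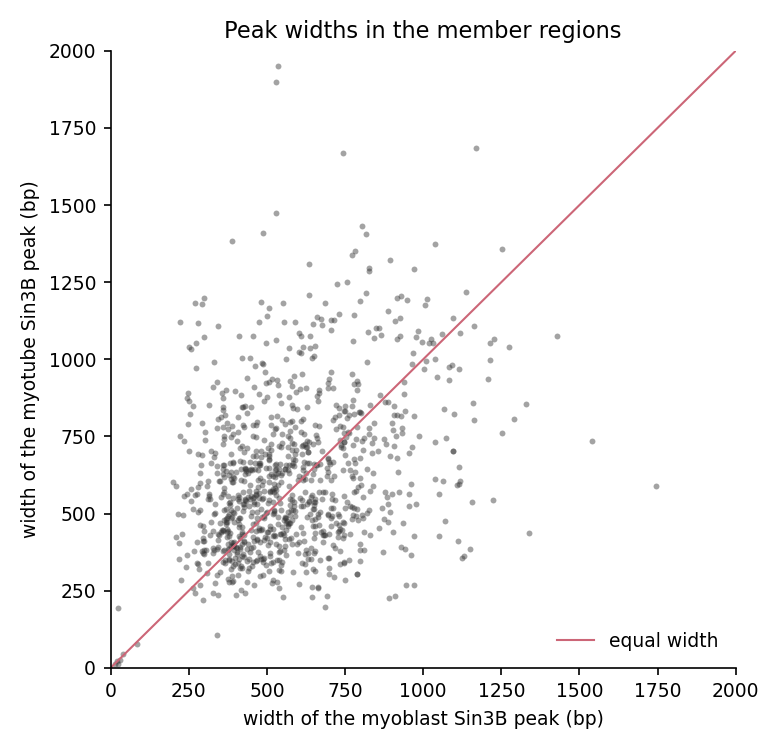
Width of the myotube Sin3B peak (vertical axis, bp) against that of the myoblast Sin3B peak (horizontal axis, bp) in the 1000 members, one point each, with the line of equal width. Points spread on both sides of the line, with 555 above and 444 below it.

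By the mean rank of both peaks, the widest member was on chromosome 12 at 111828993 to 111830677, with a myoblast peak of 1169 bp inside a myotube peak of 1685 bp. Next came chromosome 1 at 134373118 to 134374642 (1252 and 1358 bp), chromosome 5 at 143575648 to 143578046 (1137 and 1218 bp) and chromosome 6 at 126889058 to 126890431 (1038 and 1374 bp). The region on chromosome 1 at 63222735 to 63224174 had the wider peak in myoblasts, 1429 against 1076 bp. Of the 12 widest by this rank, 5 were on chromosome 1, which held 59 of all 1000 members (5.90%). This count was not tested. Coordinates are in the lists' own build and lie outside the stretches, so no gene is named for them.

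The largest ratio belonged to a region on chromosome 6 at 72785938 to 72786131, where a myoblast peak of 23 bp faced a myotube peak of 194 bp (8.43). On chromosome 10 at 40020303 to 40021424 the widths were 223 and 1122 bp (5.03), and on chromosome 6 at 119986168 to 119987350 they were 271 and 1183 bp (4.37). At the other end, a region on chromosome 11 at 75992460 to 75993351 had 892 bp in myoblasts and 226 bp in myotubes (0.253), and one on chromosome 19 at 42007292 to 42008245 had 909 and 233 bp (0.256). In the first 3 of these the narrow myoblast peak lay inside the wide myotube peak. A peak under 50 bp was present in 6 members and in 5 of them at both stages, among them the Tiam1 region and one on chromosome 7 at 73383222 to 73383245. These are shorter than a sequenced fragment, which the protocol selected at about 350 bp with adapters.

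The least overlap within a member was 10 bp, on chromosome 2 at 84877071 to 84877796 (peaks of 399 and 337 bp), and in 78 members the shared part was under 50% of the shorter peak. Just outside the rule lay a pair on chromosome 2, a myoblast peak at 151319836 to 151320209 and a myotube peak at 151320212 to 151320354, with 2 bp between them. Such facing pairs without overlap numbered 30 within 100 bp and 70 within 1000 bp. Requiring 50% of the shorter peak in place of 1 bp gave 936 members.

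Most members lay far from any Sin3A peak. The median gap was 234164.5 bp, 9 members had a Sin3A peak within 1 kb and 27 within 5 kb. The gap was not measured for myotube-alone or myoblast-alone regions, and the Sin3A lists are short. Distance from Sin3A is thus not shown to be particular to the members. Among the closest were chromosome 15 at 80086452 to 80087197, 158 bp from a Sin3A peak, and chromosome 17 at 35257766 to 35258299, 166 bp away. The farthest was chromosome 6 at 3448227 to 3448957, at 26110622 bp. On the other side of the rule, the smallest overlap with a Sin3A peak that removed a region was 10 bp, on chromosome 7. The median gap to another Sin3B peak was 48751.5 bp, with 112 members within 1 kb and 142 within 5 kb. The gaps to the 2 proteins are not comparable, since the Sin3B lists are longer and the rule removed overlaps with Sin3A.

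Members were spread over all 20 chromosomes much like the other Sin3B regions without Sin3A. They made up 26.1% (24.7 to 27.5%) of those 3833 regions. Chromosome 11 had the most, 108 (10.8%), and chromosome X the fewest, 6. Chromosome 4 held 8.20% of members against 5.86% of the 2833 others (Fisher's exact test, two-sided, p = 0.0110, adjusted over 20 chromosomes 0.220), and chromosome 7 held 3.50% against 5.08% (p = 0.0447, adjusted p = 0.379). These were the 2 chromosomes with an unadjusted p under 0.05, and after Benjamini-Hochberg adjustment 0 (0%) passed.

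**Figure D5:**
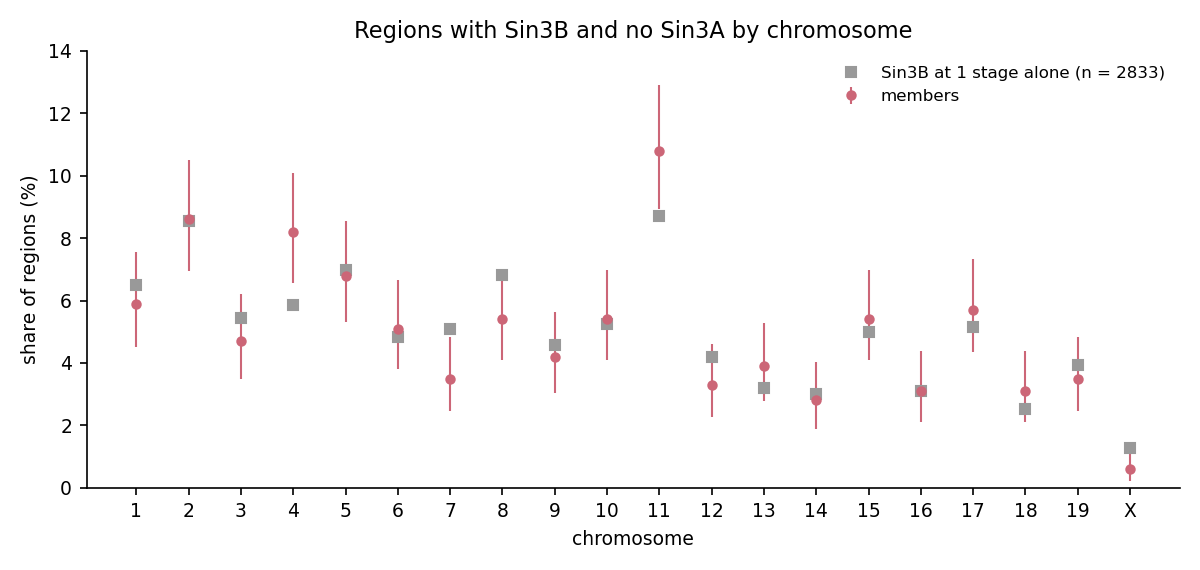
Share of regions by chromosome (percent) for the 1000 members, with 95% exact intervals, and for the other regions with Sin3B at a single stage and no Sin3A. The member share is highest on chromosome 11 (10.8%) and lowest on X (6 members), and the gap on chromosome 4 (8.20 against 5.86%) did not pass adjustment.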

How the data were processed

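The authors deposited peak positions (chromosome, start and end), with no score, signal or p-value column in the files. The 11 files reduced to 4 distinct lists with 7606 peaks. Libraries were made with 18 PCR cycles, per the labels' protocols. Aligner, peak caller, threshold, build, pooling and use of inputs are named by no source used here, so depth and its precision are unknown, and intervals cover counting error only.

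Starts were written counting from 1. Peaks sharing at least 1 bp were merged over the lists. A stretch ran from a chromosome's first region to the last with a gene start before 10 regions in a row without one, and needed 5 gene starts. Outside the 3 stretches no gene was assigned, and no coordinates were converted. The centre and width of a stage are those of its widest peak in the region.

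Shares carry 95% Clopper-Pearson intervals and were compared by two-sided Fisher's exact tests with Benjamini-Hochberg adjustment (threshold 0.05). The members, gene lists and motifs were chosen with earlier results of these data known. Regions were named by mean rank of both peak widths, by width ratio, by overlap and by distance to Sin3A, and genes as those of the lists with a start in a member. Other genes in members, the roles of the 42 genes and the members with peaks under 50 bp or farthest from Sin3A were picked after their values were seen, as were the single-peak tests. The alternatives joined peaks by 50% of the shorter one or within 1 kb, or used the wider 50% of each list, peaks under 50 bp or chromosome X left out, wider start windows, chromosome 16 alone, either gene end, and gene ends added for genes without a start in the promoter table. Region counting was tested on simulated lists. One gene is not reported here. Computation ran in Python 3.11.15 with scipy 1.17.1, numpy 2.4.6, pandas 2.3.3 and, for plots, matplotlib 3.10.9.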

Additional observations from a re-analysis of the deposited data

How the results depend on the processing

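Of 76 alternative values, 60 kept their direction and their side of the threshold, or moved little. With the wider 50% of each list, 450 members were left, 62.0% of them had the wider peak in myotubes, 3.58% of coding genes on the stretches started in one, and the excess in gene starts was 9.66 points over myotube-alone and 5.77 points over myoblast-alone regions (Fisher's exact tests, both adjusted p = 1.00). Joining by 50% of the shorter peak left 936 members and joining within 1 kb gave 1040. Gene starts within 1 kb gave excesses of 0.837 and 16.5 points (Fisher's exact tests, adjusted p = 1.00 and 0.317), and 89.4% of members had a start within 5 kb. Single myotube peaks gave 20.1 points (peak over a start) and 12.7 points (centre within 250 bp) over the myotube-alone regions. Against regions that also held Sin3A, whose difference never passed, the sign turned with joining by 50% (-0.505), the wider 50% of peaks (-2.56), chromosome 16 alone (-10.0), either gene end (-9.79), adding both ends of genes without a start of the table (-2.02) and single myotube peaks over a start (-3.30). The causes were not tested.

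No paired analysis was possible because the files of a group are identical, which leaves 1 list per group, and for the same reason leaving out a replicate was not run. Unknown depth limits every statement on a missing peak, and gene names rest on 4.70% of the members.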
